A study of Mus musculus with 70 samples.

Results

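Transcript levels of 10 genes of the glucocorticoid system were followed in the dorsal hippocampus of mice across 70 RNA sequencing libraries. They were the 2 corticosteroid receptors, Nr3c1 (glucocorticoid receptor) and Nr3c2 (mineralocorticoid receptor), and 8 genes known to respond to the hormone, Sgk1, Fkbp5, Tsc22d3, Nfkbia, Plekhf1, Ddit4, Zbtb16 and Cdkn1a. The genes were picked by symbol from the 24346 genes listed, with earlier results on comparisons with the sedentary group in view, so values in those comparisons are given as a description. All 10 had a mean of at least 1 FPKM (a level counted per kilobase of transcript and scaled to the mapped fragments of the library), as did 12994 genes in all, which were the genes tested.

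The study asked which hippocampal transcripts accompany schedules of voluntary wheel running that let a short training session in the object location memory (OLM) task become a long-term memory. Every animal was an adult male C57BL/6J mouse, housed alone. Each of 7 groups held 10 libraries. Home cage mice had neither a wheel nor training, and sedentary mice were trained without a wheel. The 5 exercise groups were trained and are named by days of initial running, days of sedentary delay and days of renewed running. They are 0-0-2, 14-0-0, then 14-7-0 and 14-14-0 with a delay, and 14-7-2 with a delay and renewed running. Trained mice were first handled and habituated to the chamber over several days, and the labels do not say whether home cage mice were too. Training lasted 3 minutes, and tissue was taken 1 hour later. It was collected in 2 harvest cohorts 24 hours apart, with 5 libraries of each group in each. Mice of 14-0-0, 14-7-2 and 0-0-2 lost the wheel on the evening before training, while those of 14-7-0 and 14-14-0 had been without it for the 7 or 14 days of delay. The labels do not say that each library is a separate mouse, so p-values measure the spread between these libraries. No group of untrained mice with a wheel was among the libraries analysed here.

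Corticosterone, the main glucocorticoid of rodents, is released by the adrenal gland in a daily rhythm and under stress. It binds the high-affinity mineralocorticoid receptor and the lower-affinity glucocorticoid receptor, both abundant in hippocampal neurons. The bound receptors enter the nucleus and change transcription at glucocorticoid response elements, and several induced genes, Fkbp5 and Nfkbia among them, dampen receptor or inflammatory signalling in turn.

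Promoter sequence was taken from RefSeq (GRCm38.p6, the assembly also called mm10), as the 250 bases before each annotated transcript start. Of the 10 genes 8 had an entry, with 16 starts among them, and Nr3c1 and Zbtb16 had none. On both strands 4 motifs were searched: the palindromic glucocorticoid response element (the half-site AGAACA and its reverse complement, 3 bases apart), the half-site alone, an NF-kappaB site of 10 letters (those in capitals in the Nfkbia window) and the cAMP response element TGACGTCA. A match is a description of the letters and was not tied to the measured levels. The 3 windows below are shown because they hold the full response element, a half-site and the NF-kappaB site of genes whose levels are described next, with the match in capitals, each printed 5′ to 3′ along the gene's own strand. The Sgk1 window lies at chr10:21993640-21993889 on the plus strand, inside the annotated gene and before an internal transcript start at 21993890. The Tsc22d3 window lies at chrX:140600523-140600772 on the minus strand and the Nfkbia window at chr12:55492648-55492897 on the minus strand.
Sgk1: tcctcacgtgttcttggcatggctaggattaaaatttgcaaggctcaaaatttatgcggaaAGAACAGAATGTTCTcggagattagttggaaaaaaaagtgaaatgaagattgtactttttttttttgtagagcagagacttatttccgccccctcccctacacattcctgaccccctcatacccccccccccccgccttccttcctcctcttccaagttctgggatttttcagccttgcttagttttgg
Tsc22d3: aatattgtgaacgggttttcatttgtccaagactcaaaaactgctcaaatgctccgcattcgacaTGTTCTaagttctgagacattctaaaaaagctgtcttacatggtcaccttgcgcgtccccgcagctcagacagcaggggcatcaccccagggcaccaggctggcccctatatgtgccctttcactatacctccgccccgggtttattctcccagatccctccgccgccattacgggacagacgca
Nfkbia: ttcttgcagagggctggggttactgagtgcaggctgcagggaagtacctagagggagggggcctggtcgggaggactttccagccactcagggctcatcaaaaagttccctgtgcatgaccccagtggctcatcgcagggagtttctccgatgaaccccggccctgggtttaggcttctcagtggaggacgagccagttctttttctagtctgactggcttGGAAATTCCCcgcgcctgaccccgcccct
The full response element began at position -189 of the Sgk1 window and was present in 3 of the 32851 promoters (0.00913%). The half-site, which the full element contains, was present in 16.1% of promoters and stood at -185 before the Tsc22d3 start. The NF-kappaB site, at -29 before the Nfkbia start, was present in 0.0852% of promoters, and no window of the 10 genes held the cAMP response element, which 1.55% of promoters held.

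The libraries carried hippocampal markers, with 1 exception. In 69 libraries Neurod6, a marker of pyramidal cells, stood at 78.4 to 269 FPKM and Prox1, a marker of dentate granule cells, at 9.70 to 36.8 FPKM. In sedentary replicate 6 Neurod6 was 2.45 FPKM, Prox1 2.91 FPKM and the forebrain glutamate transporter Slc17a7 17.1 FPKM, against 367 to 870 FPKM elsewhere. Wfs1, another pyramidal cell marker, was not low there, at 54.9 FPKM against 20.6 to 123 FPKM in the other 69. The summed level of the 5 thalamic markers was 312 FPKM in that library and 11.4 to 198 FPKM in the others, with a median of 29.2 FPKM. The highest library stood well above that median in 14-14-0 (198 FPKM), 0-0-2 (166 FPKM) and 14-7-2 (108 FPKM). Tcf7l2, 1 of these 5, was not high in sedentary replicate 6, at 2.04 FPKM against 0.761 to 10.9 FPKM. The summed level of the 8 oligodendrocyte markers was 7204 FPKM, above the 1381 to 5102 FPKM of the others. That of the 6 inhibitory neuron markers was 904 FPKM, inside the 378 to 908 FPKM of the others. Differences of the 10 genes between home cage and sedentary, and the Sgk1 and called Ddit4 differences of exercise groups from sedentary, are also given without it. Other results that use the sedentary libraries include it unless stated. A second library, 14-7-0 replicate 4, listed 10279 genes at 0, while the other 69 listed 6243 to 7199. In bulk tissue, fewer cells of a type and less RNA per cell cannot be told apart.

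**Figure D1:**
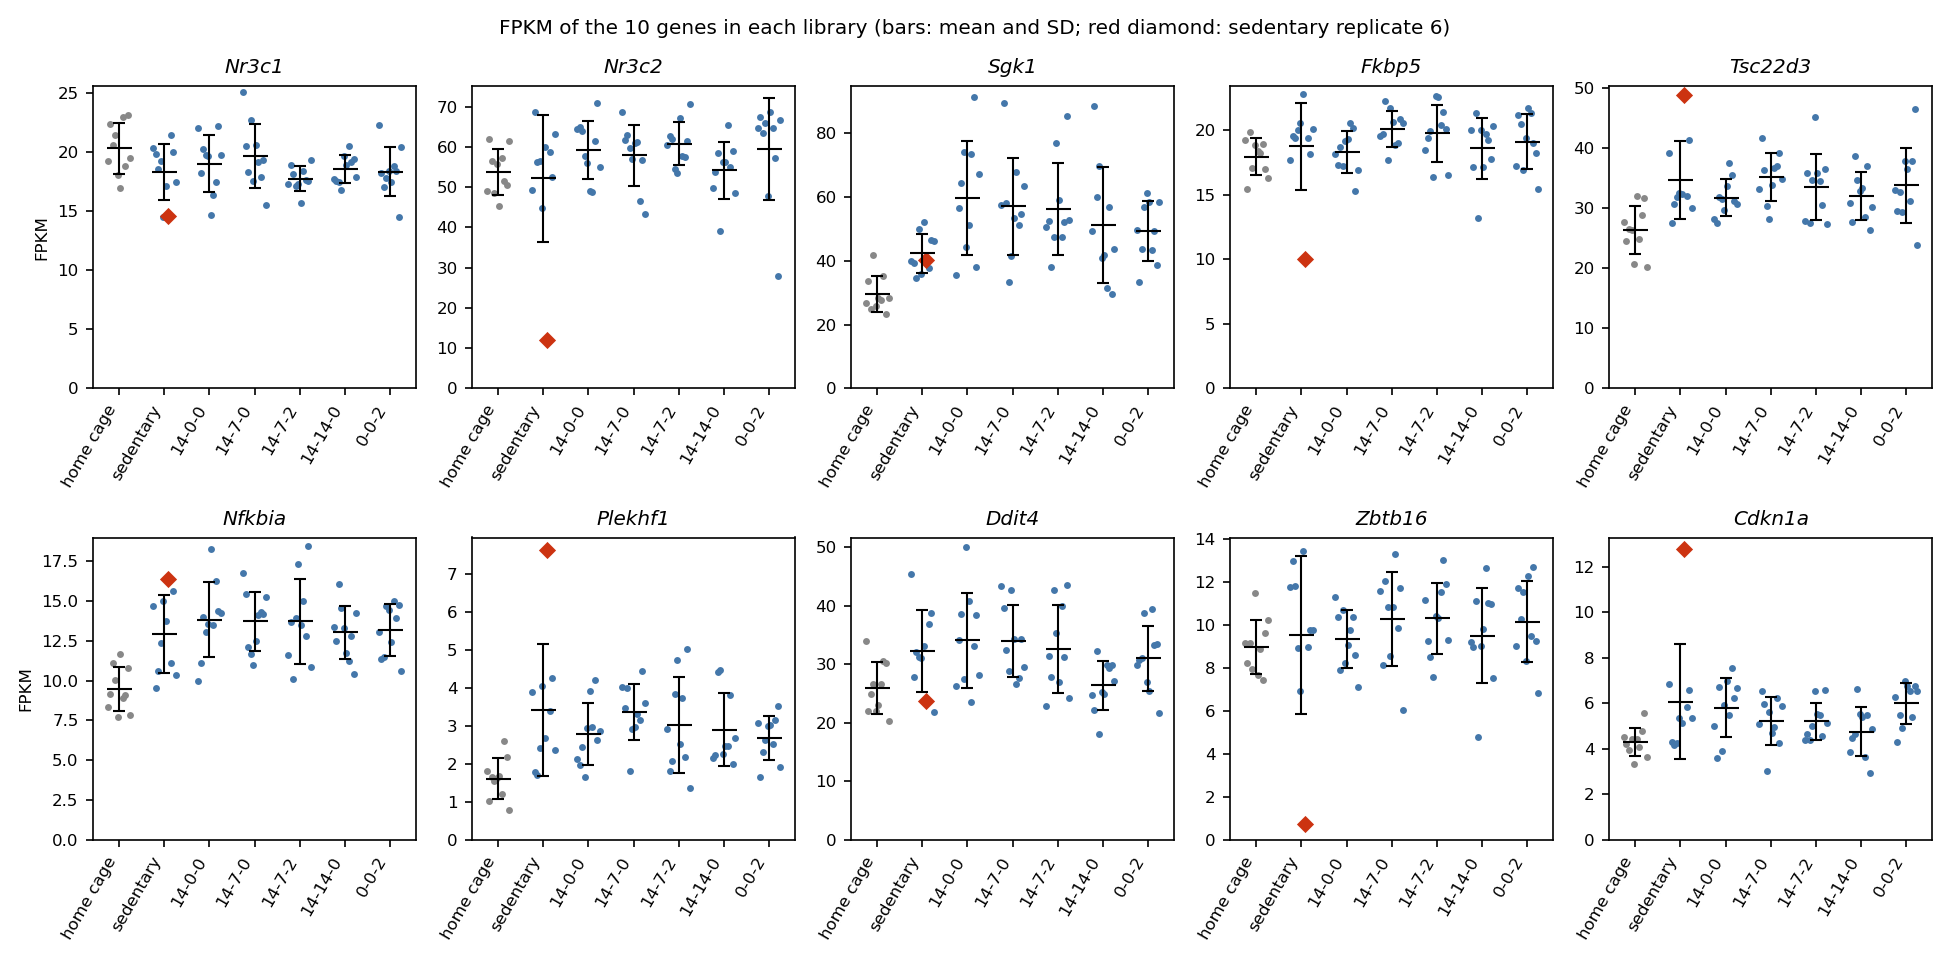
Level of each of the 10 genes in FPKM (vertical axes, from 0) in the 70 libraries, by group, with the mean and SD of the 10 libraries of a group as black bars. Sedentary replicate 6, drawn as a red diamond, lies far from its group for Nr3c2, Zbtb16, Fkbp5, Plekhf1 and Cdkn1a, while Sgk1, Nfkbia and Plekhf1 are lowest on average in the home cage group.

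The exercise groups were compared with the home cage group by limma's moderated test, without any sedentary library. Here running and training, with the handling and habituation that may go with it, differ between the groups, so their parts cannot be told apart. The 5 comparisons share the 10 home cage libraries, and those libraries also entered the comparison known when the genes were picked, so the p-values are not independent of the choice. A gene was called at an unadjusted p under 0.05, the study's own criterion, and adjusted p-values are Benjamini-Hochberg values over all 12994 genes. In 14-0-0, 6 of the 10 genes were called, all higher, where 7.52% of all genes were called and 5.06% called higher. In 14-7-0 it was 7, all higher, against a background of 4.19%, or 2.75% higher. In 14-7-2, 8 were higher and 1 lower, against 9.96%, or 5.02% higher. In 14-14-0, 4 were higher and 1 lower, against 2.26%, or 0.916% higher, and in 0-0-2, 6 were higher and 1 lower, against 6%, or 3.12% higher. The median log2 difference of the 8 responsive genes was 0.39, 0.40, 0.33, 0.20 and 0.41 in that order, and the median over all genes lay between 0.00 and 0.02. In none of these comparisons did the libraries of the 2 groups separate without overlap for any of the 10 genes, a separation upwards seen for 0.0231% of all genes in 14-0-0, for 0.0462% in 14-7-2 and for 0% in the other 3.

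**Figure D2:**
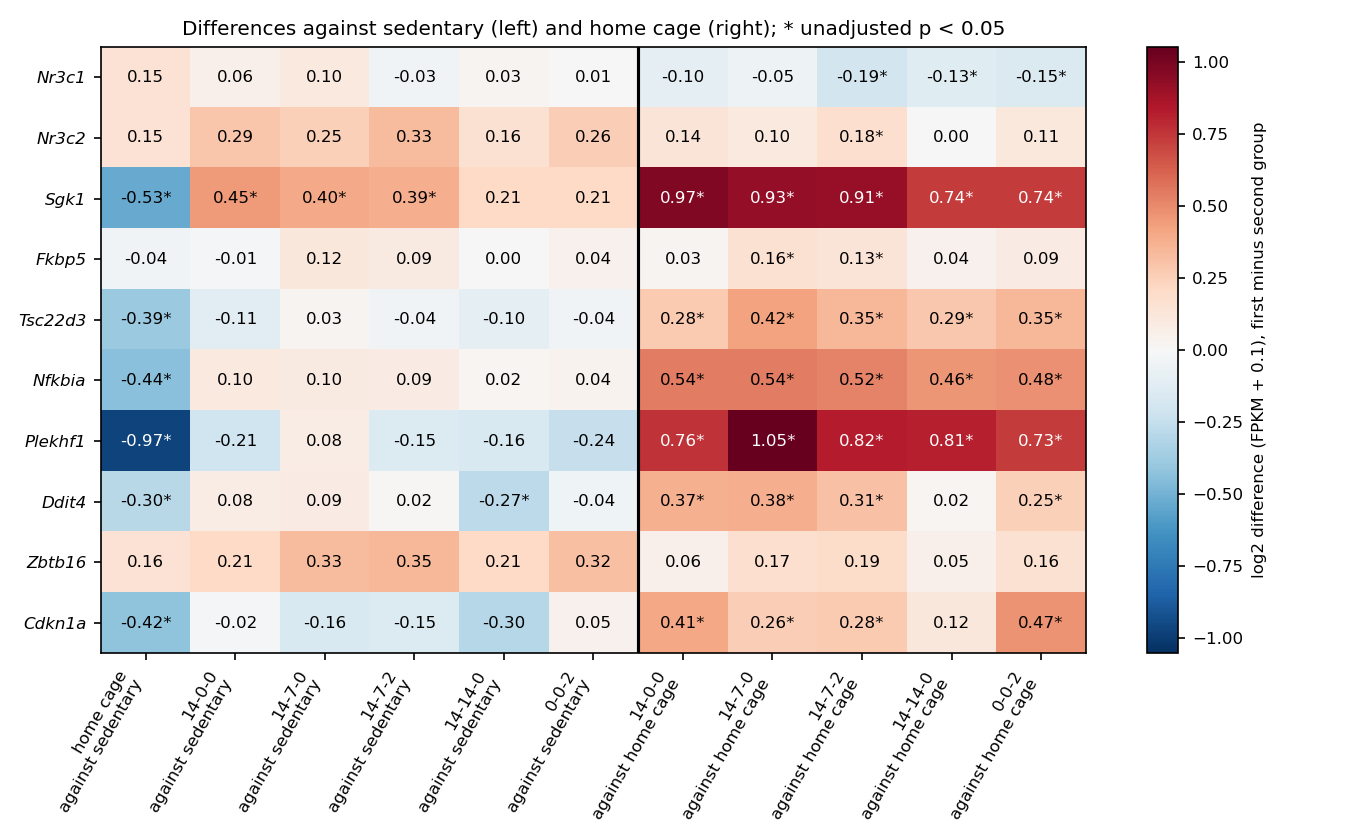
Log2 difference of each gene (rows) in 6 comparisons with the sedentary group and 5 with the home cage group (columns), first minus second group, on log2(FPKM + 0.1), with asterisks at an unadjusted p under 0.05. The home cage columns are red for Sgk1, Tsc22d3, Nfkbia and Plekhf1 throughout, from 0.28 to 1.05, while the sedentary columns of the exercise groups lie nearer to 0.

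Among the receptors, Nr3c1 (chr18:39410545-39519421) varied little between groups. Levels in home cage ran from 17.0 through a median of 20.1 to 23.1 FPKM, and 14-7-2 libraries from 15.7 through 17.6 to 19.4 FPKM. All 10 of the 14-7-2 libraries lay below the home cage median, but all except 1 were within the home cage range. The log2 difference was -0.19 ± 0.06 (SE, adjusted p = 0.184), and Nr3c1 was also called lower in 14-14-0 (-0.13 ± 0.06) and in 0-0-2 (-0.15 ± 0.07), calls lost in 5 and 7 of 14 alternative settings. In 14-0-0 and 14-7-0 it differed by -0.10 and -0.05 and was not called.

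Nr3c2 (chr8:76898083-77245012) had the higher level of the 2 receptors per length, with a median of 57.6 FPKM over the 70 libraries against 18.7 FPKM for Nr3c1. It ran from 45.3 through a median of 53.6 to 62.0 FPKM in home cage and from 53.5 through 61.0 to 70.6 FPKM in 14-7-2, where it was called higher by 0.18 ± 0.06 (adjusted p = 0.283). The other 4 log2 differences were between 0.00 and 0.14 and were not called. The receptors differed from home cage by at most 0.19 on the log2 scale in any exercise group.

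Sgk1 (chr10:21882184-21999903), a kinase that regulates ion channels and transporters, had the smallest p of the 10 genes in every exercise group except 14-14-0, where Nfkbia had it. Home cage libraries ran from 23.2 through a median of 27.9 to 41.8 FPKM. The medians of the exercise groups were 60.5 FPKM in 14-0-0, 56.2 FPKM in 14-7-0, 52.2 FPKM in 14-7-2, 46.6 FPKM in 14-14-0 and 49.5 FPKM in 0-0-2. All 10 libraries of each exercise group were above the home cage median, and 7 to 9 of 10 were above the highest home cage library. The log2 differences were 0.97 ± 0.15 (1.97-fold, adjusted p = 0.02), 0.93 ± 0.14 (1.90-fold, adjusted p = 0.0204), 0.91 ± 0.13 (1.88-fold, adjusted p = 0.00305), 0.74 ± 0.17 (1.67-fold, adjusted p = 0.798) and 0.74 ± 0.12 (1.67-fold, adjusted p = 0.0454) in the same order. Within harvest cohorts the differences were 0.68 to 0.99 in cohort 1 and 0.49 to 1.12 in cohort 2, 10 values that were all above 0.

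Ordered by mean, Sgk1 was lowest in home cage at 29.5 ± 5.69 FPKM (SD, n = 10), followed by sedentary at 42.3 ± 6.09 FPKM and 0-0-2 at 49.3 ± 9.45 FPKM. Then came 14-14-0 at 51.3 ± 18.2 FPKM, 14-7-2 at 56.3 ± 14.4 FPKM, 14-7-0 at 57.1 ± 15.2 FPKM and 14-0-0 at 59.7 ± 17.8 FPKM. The ranges of mean ± SD of neighbours in this order overlapped, except between home cage and sedentary, and the exercise groups had the wider spread.

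Nfkbia (chr12:55489409-55492647), which encodes the inhibitor that holds NF-kappaB in the cytoplasm, was called higher in every exercise group. In home cage it ran from 7.68 through a median of 9.13 to 11.7 FPKM, and the medians of the exercise groups were between 13.05 FPKM in 14-14-0 and 14.2 FPKM in 14-7-0. All 10 libraries of each exercise group were above the home cage median, and 7 or 8 were above the highest home cage library. The log2 differences were 0.54 ± 0.10 in 14-0-0, 0.54 ± 0.09 in 14-7-0, 0.52 ± 0.11 in 14-7-2, 0.46 ± 0.09 in 14-14-0 and 0.48 ± 0.09 in 0-0-2. Adjusted p-values were 0.0562, 0.0269, 0.0367, 0.376 and 0.0758, so 14-7-0 and 14-7-2 passed 0.05 over all genes.

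Plekhf1 (chr7:38220654-38227994), an endosomal protein with PH and FYVE domains, was the least abundant of the 10 genes and had the largest log2 difference of any comparison with home cage. It ran in home cage from 0.787 through a median of 1.64 to 2.61 FPKM, and 14-7-0 libraries from 1.80 through 3.39 to 4.43 FPKM. In 14-7-0, 9 of 10 libraries were above the highest home cage library, a log2 difference of 1.05 ± 0.18 (2.07-fold, adjusted p = 0.0281). In the other exercise groups the difference was 0.73 to 0.82 with adjusted p-values of 0.154 and above. The coefficient of variation in home cage was 33.2%, against 14.8% for Nfkbia.

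Tsc22d3 (chrX:140539528-140600522), the glucocorticoid-induced leucine zipper protein, was called higher in all 5 groups with smaller differences. Home cage libraries ran from 20.1 through a median of 26.5 to 31.9 FPKM and 14-7-0 libraries from 28.1 through 35.6 to 41.7 FPKM. Of these 14-7-0 libraries 8 were above the highest home cage library. The difference was 0.42 ± 0.09 in 14-7-0 (adjusted p = 0.0998) and 0.28 to 0.35 in the others.

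Ddit4 (chr10:59949675-59951770), an inhibitor of mTORC1 signalling, was called higher in every exercise group except 14-14-0. Home cage libraries ran from 20.3 through a median of 25.7 to 34.01 FPKM, 14-7-0 libraries from 26.7 through 33.3 to 43.4 FPKM, and 14-14-0 libraries from 18.1 through 26.3 to 32.3 FPKM. Of the 14-14-0 libraries 9 lay within the home cage range and 1 below it, while 5 of the 14-7-0 libraries were above it. The log2 difference was 0.37 ± 0.12 in 14-0-0, 0.38 ± 0.11 in 14-7-0, 0.31 ± 0.12 in 14-7-2 and 0.25 ± 0.11 in 0-0-2, against 0.02 ± 0.10 in 14-14-0. Adjusted p-values were 0.381 and above. In harvest cohort 1 alone the 4 called differences were 0.29 to 0.53 and 3 were called, and in cohort 2 alone they were 0.21 to 0.33 and none was called.

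Cdkn1a (chr17:29090979-29100722), the cyclin-dependent kinase inhibitor p21, was likewise called in every exercise group except 14-14-0. The home cage libraries held 3.32 through a median of 4.31 to 5.56 FPKM and 0-0-2 libraries from 4.28 through 6.39 to 6.96 FPKM. The difference was 0.47 ± 0.10 in 0-0-2 (adjusted p = 0.127), 0.41 ± 0.12 in 14-0-0, 0.28 ± 0.09 in 14-7-2, 0.26 ± 0.12 in 14-7-0 and 0.12 ± 0.12 in 14-14-0. The call in 14-7-0 was lost in 7 of 15 alternative settings.

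Fkbp5 (chr17:28398753-28486149), a co-chaperone that lowers the receptor's affinity for hormone, ran from 15.4 through a median of 18.3 to 19.9 FPKM in home cage and from 17.7 through 20.1 to 22.2 FPKM in 14-7-0. It was called higher in 14-7-0 by 0.16 ± 0.05 (adjusted p = 0.79) and in 14-7-2 by 0.13 ± 0.06 (adjusted p = 0.493), a call lost in 9 of 14 alternative settings. Zbtb16 (chr9:48651797-48836225), a zinc finger transcription factor, ran from 7.42 through 8.999 to 11.5 FPKM in home cage, differed by 0.05 to 0.19 and was called in no comparison with home cage.

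Other transcripts differed in the same comparisons. The 7 immediate early genes measured, which report recent neuronal activity, included 2 called lower than home cage in 14-0-0, 4 in 14-7-2, 2 in 14-14-0 and 1 each in 14-7-0 and 0-0-2, with none higher. Their summed level was 75.3 to 244 FPKM in home cage and 77.1 to 145 FPKM in 14-7-2. Of the 8 oligodendrocyte markers 4 were called lower in 0-0-2, with summed levels of 1381 to 3799 FPKM against 1800 to 5102 FPKM in home cage. The summed level of the 8 choroid plexus markers spread most, from 67.9 through a median of 126 to 15550 FPKM in home cage and from 34.4 through 2288 to 16057 FPKM in 14-0-0. Its medians were 2110 FPKM in 14-14-0, 115 FPKM in 0-0-2, 90.6 FPKM in 14-7-2 and 83.9 FPKM in 14-7-0. No gene of these 3 lists was at 0 in a group. Their part in the differences of the 10 genes was not tested.

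The sedentary group was trained and differs from the exercise groups in running and in the cage with its wheel, which cannot be told apart. Against it, the counts describe the comparisons in view when the genes were picked. Home cage and sedentary mice differ in training and may differ in the handling and habituation before it, which cannot be told apart. In home cage against sedentary 6 of the 10 genes were called, all lower in home cage. Of all genes 2.3% were called and 1.08% called lower. Sedentary libraries ran from 34.6 through a median of 40.2 to 52.3 FPKM for Sgk1 and from 9.51 through 13.1 to 16.4 FPKM for Nfkbia. All 10 sedentary libraries were above the home cage median for Sgk1, Tsc22d3, Nfkbia and Plekhf1, with 4 to 6 of 10 above the highest home cage library. The log2 differences, home cage minus sedentary, were -0.97 ± 0.24 for Plekhf1, -0.53 ± 0.10 for Sgk1, -0.44 ± 0.11 for Nfkbia, -0.42 ± 0.16 for Cdkn1a, -0.39 ± 0.10 for Tsc22d3 and -0.30 ± 0.12 for Ddit4. Nr3c1 and Nr3c2 each differed by 0.15, and Fkbp5 and Zbtb16 by -0.04 and 0.16.

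**Figure D3:**
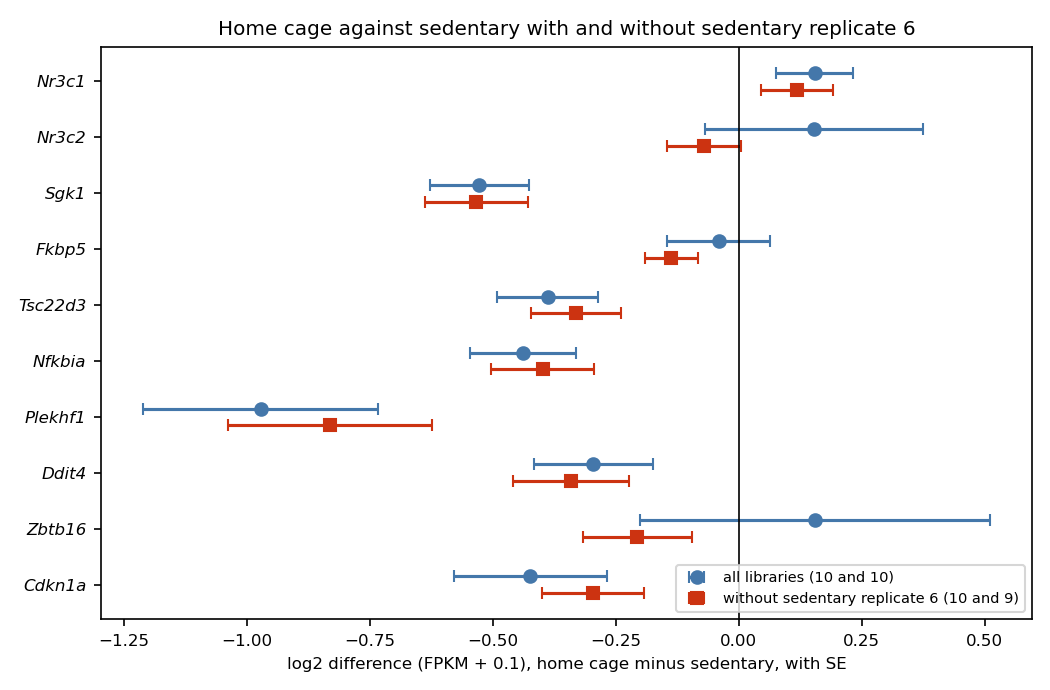
Log2 difference of each gene, home cage minus sedentary, with its SE, over all 20 libraries (blue circles) and without sedentary replicate 6 (red squares). Sgk1 stays at -0.53 without that library, Plekhf1 moves from -0.97 to -0.83, and Zbtb16 moves from 0.16 to -0.21.

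Without sedentary replicate 6, 7 of the 10 genes were called lower in home cage, where 3.15% of all genes were called. Sgk1 kept a difference of -0.53, Nfkbia was at -0.40, Plekhf1 at -0.83, Tsc22d3 at -0.33, Ddit4 at -0.34 and Cdkn1a at -0.30. Fkbp5 moved from -0.04 to -0.14 and joined the genes called. Nr3c2 turned from 0.15 to -0.07 and Zbtb16 from 0.16 to -0.21, neither of them called with or without the library. In that library Zbtb16 was 0.746 FPKM against 6.94 to 13.4 FPKM in the other 9 sedentary libraries, Nr3c2 11.9 against 44.7 to 68.7 FPKM and Fkbp5 9.996 against 17.7 to 22.8 FPKM. Plekhf1, Cdkn1a, Tsc22d3 and Nfkbia were above all other sedentary libraries there, at 7.61, 12.8, 48.9 and 16.4 FPKM, while Sgk1 at 40.4 FPKM lay near the middle of its group.

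In the exercise groups Sgk1 was the gene called against sedentary in 14-0-0 (0.45 ± 0.15, where 9.15% of all genes were called), in 14-7-0 (0.40 ± 0.13, 3.26%) and in 14-7-2 (0.39 ± 0.12, 4.39%), 1 of the 10 genes each time. In 14-14-0 the 1 gene called was Ddit4, lower by 0.27 ± 0.12, where 4.95% of all genes were called, and in 0-0-2 none was called, where 2.37% were. Sgk1 differed by 0.21 in both of these groups. Without sedentary replicate 6 the Sgk1 differences were 0.44, 0.39, 0.38, 0.21 and 0.20 with the groups in the order of the heatmap of differences. The Ddit4 difference in 14-14-0 was -0.45 in harvest cohort 1 and -0.09 in cohort 2, where it was not called. Without sedentary replicate 6 it was -0.32 and was called, where 6.97% of all genes were.

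Other transcripts moved with these comparisons too. Of the 7 immediate early genes 5 were called lower than sedentary in 14-0-0, 4 in 14-7-0, 6 in 14-7-2, 5 in 14-14-0 and 3 in 0-0-2, with medians of -0.47 to -0.72. Choroid plexus markers had 8 of 8 called higher in 14-0-0 and in 14-14-0, with a summed level in sedentary of 22.7 to 368 FPKM, and of the 6 meningeal markers 4 and 5 were higher in the same groups. Of the 8 oligodendrocyte markers 4 were called lower in 0-0-2. In home cage against sedentary 4 of 8 choroid plexus markers (median 1.41) and 4 of 6 meningeal markers (median 0.55) were called higher in home cage, opposite in direction to the called genes of the 10. Their part in these differences was not tested.

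Between exercise groups, where no control library entered, few of the 10 genes were called. None was called for renewed running (14-7-2 against 14-7-0, with 5.39% of all genes called), for earlier running (14-7-2 against 0-0-2, 2.43%) or for its length (14-0-0 against 0-0-2, 1.56%). For the first week of delay, 14-7-0 against 14-0-0, 2 were called where 5.63% of all genes were. Fkbp5 was higher by 0.14 ± 0.05 (adjusted p = 0.73) and Tsc22d3 by 0.14 ± 0.07 (adjusted p = 0.884), with limma as before. For the second week, 14-14-0 against 14-7-0, 1 was called where 6.44% were, Ddit4, with a difference of -0.36 ± 0.11 (adjusted p = 0.746). Its difference was -0.61 in harvest cohort 1 and -0.11 in cohort 2, where it was not called. In cohort 2 alone Sgk1, Tsc22d3, Nfkbia and Plekhf1 were called for the second week, where 1.28% of all genes were. With both cohorts, 0 of the 10 genes were higher in 14-14-0 than in 14-7-0. Their median log2 difference was -0.13, against -0.01 over all genes. For the first week, Tsc22d3 and Fkbp5 were called in neither cohort alone. Oligodendrocyte markers moved in the first of these 2 comparisons, 5 of 8 higher, and choroid plexus markers in both, 8 of 8 lower and then 8 of 8 higher. Their part was not tested. For Sgk1 the 95% interval of the difference was -0.33 to 0.31 for 14-7-2 against 14-7-0, so differences within that interval are not excluded.

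**Figure D4:**
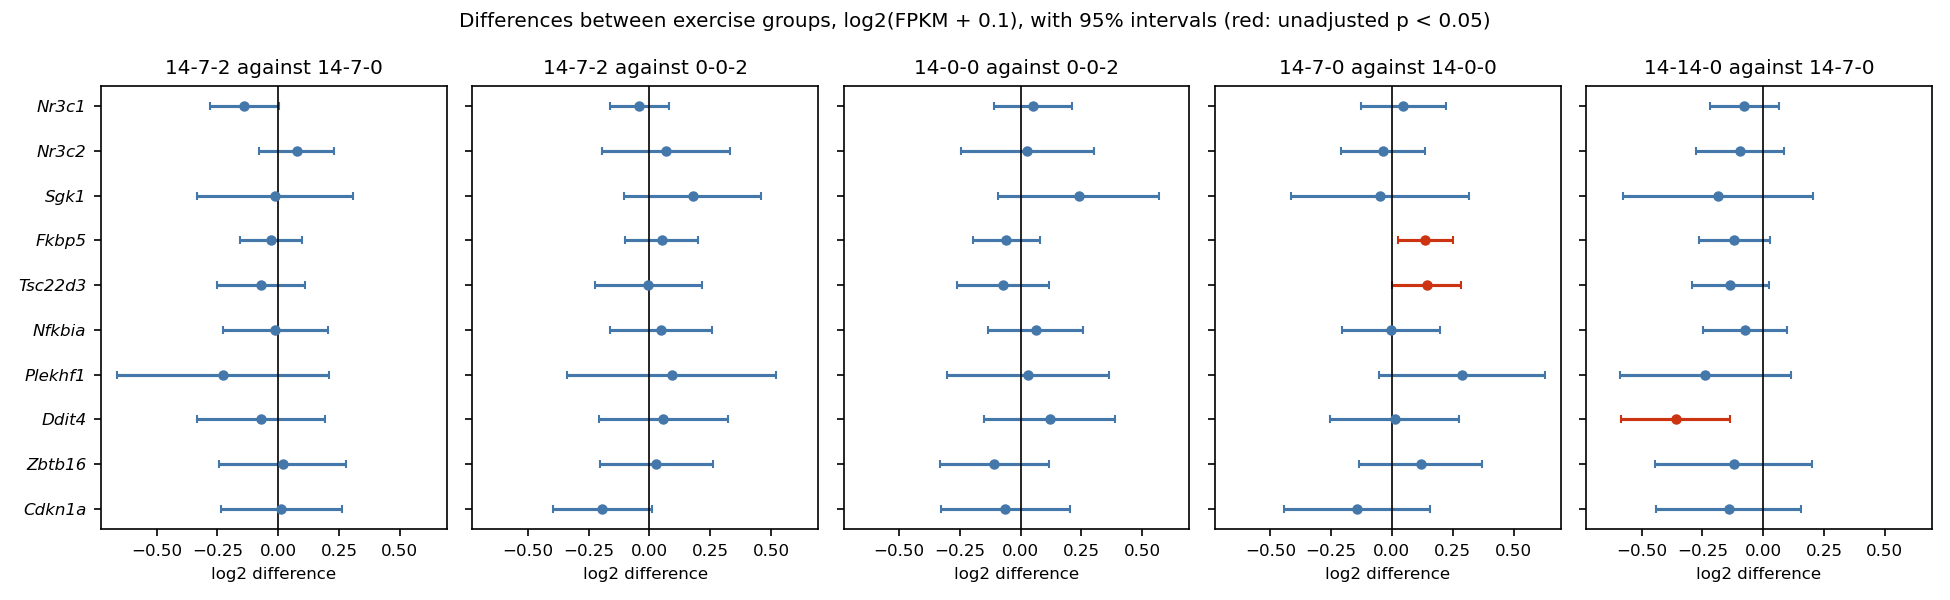
Log2 difference of each gene between pairs of exercise groups (first minus second named group) with its 95% interval, 1 panel per pair. The 3 intervals in red, Fkbp5 and Tsc22d3 in 14-7-0 against 14-0-0 and Ddit4 in 14-14-0 against 14-7-0, are those called at an unadjusted p under 0.05.

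The 2 harvest cohorts differed for 1 of the 10 genes, where 11.9% of all genes were called with group as a covariate. Cdkn1a was higher in cohort 2 by 0.16 ± 0.07 (5.67 against 4.99 FPKM, unadjusted p = 0.026, limma adjusted p = 0.331). Cohort 2 holds sedentary replicate 6, where Cdkn1a was 12.8 FPKM. Without that library the difference was 0.13 ± 0.07 (limma unadjusted p = 0.0492, adjusted p = 0.411), where 12.1% of all genes were called. Of 60 tests of whether a difference from sedentary changed with cohort, 1 had an unadjusted p under 0.05, Sgk1 in 14-14-0 (-0.75 ± 0.27), and the smallest adjusted p was 0.953.

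The wider pathway was followed with 2 lists. Of the 22 genes of the receptor complex and hormone supply 21 were tested, and of 30 other glucocorticoid-responsive genes 28. The responsive list had 7 called higher and 1 lower than home cage in 14-0-0 (7.52% of all genes called), 9 and 0 in 14-7-0 (4.19%), 6 and 2 in 14-7-2 (9.96%), 5 and 1 in 14-14-0 (2.26%) and 5 and 0 in 0-0-2 (6%), with medians of 0.10 to 0.11 against medians over all genes of 0.00 to 0.02. Arrdc2, an arrestin-domain protein, was called higher in all 5, by 0.33 to 0.64, with a limma adjusted p of 0.0303 in 14-7-2. Fam107a, an actin-binding protein induced by stress, was higher in 14-7-0 by 0.30 (adjusted p = 0.0467), and Xdh, xanthine dehydrogenase, in 14-7-2 by 0.46 (adjusted p = 0.0442). The transcription factor Klf9 was higher by 0.19 to 0.22 in 14-7-0, 14-0-0 and 14-7-2. Dusp1, a phosphatase acting on MAP kinases, was called lower in 14-0-0 (-0.31) and in 14-7-2 (-0.30), against the direction of most of its list.

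The list of the receptor complex and hormone supply had 1 of 21 genes called lower than home cage in 14-0-0 (7.52% of all genes called). In 14-7-0 it had 1 higher and 1 lower (4.19%) and in 14-7-2 3 lower (9.96%). Stip1, a co-chaperone that links Hsp70 and Hsp90, was lower than home cage by 0.13 to 0.17 in 14-7-0, 14-0-0 and 14-7-2, and 0 of the 21 genes were called in 14-14-0 and 0-0-2. Against sedentary, the list had 2 called lower in 14-0-0 (9.15% of all genes called), 3 in 14-7-0 (3.26%) and 4 in 14-7-2 (4.39%). In 14-14-0 it had 1 higher and 1 lower (4.95%), and in 0-0-2 0 (2.37%). Crhr1, the receptor for corticotropin-releasing hormone, was called lower in 14-0-0 (-0.47), 14-7-0 (-0.36), 14-7-2 (-0.47) and 14-14-0 (-0.35), with limma adjusted p-values of 0.308 and above. Home cage against sedentary had 0 of 21 called in that list by limma at an unadjusted p under 0.05, and 5 of 28 in the responsive list, where 2.3% of all genes were called. Of the 5, Per1, Klf15 and Arrdc2 were lower in home cage with differences of -0.42 to -0.45, Fam107a was at -0.13, and Lyz2, the macrophage lysozyme, was higher by 0.32. Against sedentary, the responsive list had 3 called higher and 2 lower in 14-0-0 (9.15%), 3 and 0 in 14-7-0 (3.26%) and 1 and 2 in 14-7-2 (4.39%). It had 1 and 0 in both 14-14-0 (4.95%) and 0-0-2 (2.37%). Its medians were 0.029, 0.074, 0.005, -0.017 and -0.002 in that order, against -0.010 to 0.008 over all genes.

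Within groups, several of the genes varied together from library to library. Values were centred on the mean of group and cohort, and of 45 pairs 17 had a Pearson correlation with an adjusted p under 0.05 in a permutation test, 12 positive and 5 negative. By Spearman's rho it was 18. Tsc22d3, Nfkbia, Plekhf1 and Cdkn1a formed the strongest set. Tsc22d3 and Nfkbia had r = 0.72 and rho = 0.68 (permutation p = 1e-05 for both, the smallest the permutations can give, adjusted p = 7.5e-05), with r = 0.70 without the 2 libraries farthest from the median and 0.74 and 0.71 within the cohorts. Tsc22d3 and Plekhf1 had r = 0.70 and rho = 0.69, Nfkbia and Plekhf1 0.69 and 0.68, and Plekhf1 and Cdkn1a 0.67 and 0.64, at the same p. These libraries share composition, so the values describe joint variation.

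**Figure D5:**
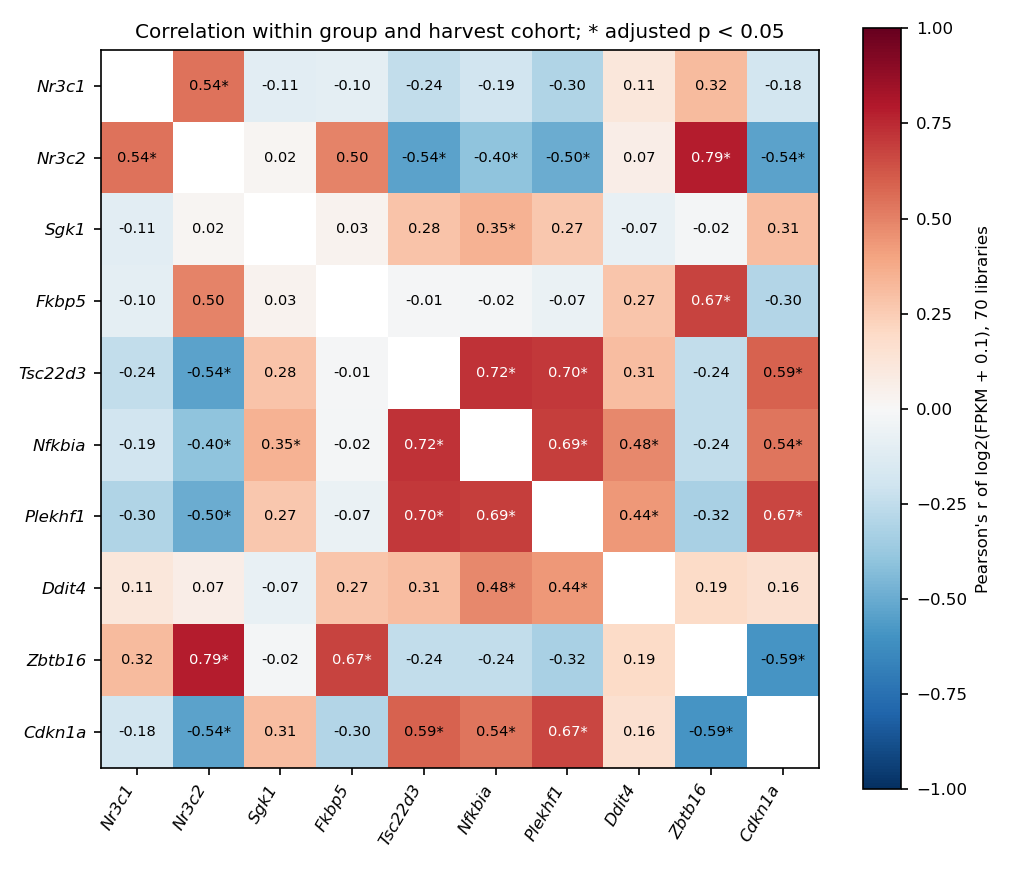
Pearson's r of log2(FPKM + 0.1) between each pair of the 10 genes over 70 libraries after centring on group and harvest cohort, on a colour scale from -1 to 1, with asterisks at an adjusted permutation p under 0.05. Tsc22d3, Nfkbia, Plekhf1 and Cdkn1a form a red block, while Nr3c2 is blue against each of them.

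The receptors followed each other, and Nr3c2 ran opposite to that set. Nr3c1 and Nr3c2 had r = 0.54 and rho = 0.50 (permutation p = 2e-05, adjusted p = 1e-04 for r), with r = 0.53 without the 2 libraries farthest from the median. Nr3c2 and Tsc22d3 had r = -0.54 and rho = -0.46 (permutation p = 2e-05, adjusted p = 1e-04 for r), with r = -0.43 without the 2 farthest. Nr3c2 and Plekhf1 had r = -0.50 and rho = -0.48. Nr3c1 had r of -0.18 to -0.30 with the same 4 genes, and none of these passed in the permutation test (adjusted p = 0.0545 and above). Sgk1 correlated weakly with Nfkbia (r = 0.35, rho = 0.31, permutation p = 0.00734, adjusted p = 0.0194), and the value was 0.51 in cohort 1 and 0.13 in cohort 2. Pairs with Zbtb16 leaned on sedentary replicate 6. Nr3c2 and Zbtb16 went from r = 0.79 to 0.41 without it, and Fkbp5 and Zbtb16 from 0.67 to 0.36. Nr3c2 and Cdkn1a also went from -0.54 to -0.32, and Nr3c2 and Fkbp5 from 0.50 to 0.04. Without that library Nr3c2 had r = -0.51 with Tsc22d3, -0.40 with Nfkbia and -0.42 with Plekhf1.

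Markers of other cells also varied with the genes within groups, over the 69 libraries without sedentary replicate 6. Of 120 pairs of a gene and a marker list, 35 had an adjusted p under 0.05 by Pearson's r and 30 by Spearman's rho in the permutation test. Sgk1 was higher where the choroid plexus score was higher (r = 0.60, rho = 0.60, permutation p = 1e-05, adjusted p = 0.0004), with r = 0.69 in cohort 1 and 0.51 in cohort 2. Ddit4 was higher where the immediate early genes were (r = 0.75, rho = 0.76, permutation p = 1e-05, adjusted p = 0.0004), and Plekhf1 did so with r = 0.54. Nr3c2 followed the dentate granule cell markers with r = 0.50 and rho = 0.48 (permutation p = 0.00044, adjusted p = 0.005). What sets these relations was not tested.

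Over 68 libraries, without sedentary replicate 6 and 14-7-0 replicate 4, the genes most like each gene by Spearman's rho were listed as a description. For Sgk1 they were Txnip (0.73), Adipor2 (0.71) and Gm11992 (0.70), for Ddit4 1500011K16Rik (0.84), Junb (0.81) and Rprml (0.80), and for Nr3c2 Rapgef5 (0.85), Robo2 (0.84) and Kcnj6 (0.83). Nfkbia had Arl4d (0.73), Plekhf1 (0.66) and Tsc22d3 (0.65), and Tsc22d3 had Plekhf1 (0.68), Lfng (0.65) and Slc2a1 (0.65). Plekhf1 stood closest to Olig1 (0.76), Slc2a1 (0.75) and Zfp36 (0.74), and Cdkn1a to Olig2 (0.63), Plekhf1 (0.63) and Cd81 (0.60). For Nr3c1 they were Pum2 (0.77), 9430020K01Rik (0.77) and Kcnh7 (0.75), for Fkbp5 Ppp1r13b (0.75), Fam220a (0.71) and Sec14l2 (0.70), and for Zbtb16 Gltscr1l (0.78), Tnxb (0.74) and Nup210 (0.74).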

How the data were processed

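Dorsal hippocampus RNA from 70 samples in 7 labelled groups of 10 was sequenced by the study as short single reads. According to the submitters' processing notes the authors aligned to mm10 with Bowtie and made gene values with Cuffnorm, and their methods name the Tuxedo protocol. The deposited values are FPKM, scaled by the authors for length and depth, in 1 table of 24346 genes. The table gives no read totals. The study lists reads by lane and barcode, which the labels do not carry, so no depth was assigned to a library and no counting error is given.

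Groups were taken from the labels. The 12994 genes averaging 1 FPKM or more entered the tests as log2(FPKM + 0.1) with limma 3.58.1 in R 4.3.3 (moderated test with a trend, two-sided) on the 20 libraries of each pair, called at an unadjusted p under 0.05 as in the study's methods, with Benjamini-Hochberg values over all genes tested. Fold changes are on this log2 scale and understate changes of low genes. The study's own test, Cyber-T, was run as an alternative. Correlations used permutation tests with 100000 resamples within group and cohort (Python 3.11.15, scipy 1.17.1). The fit was tested on simulated data: for 14-0-0 against sedentary with 12994 genes, of 200 genes shifted by 0.5 on the log2 scale 92.5% were called in the right direction, and of those shifted by 0.25 71%.

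The 10 genes, the pathway lists and the marker lists were chosen with earlier results of these data known. Genes named are the 10, at most 4 called genes of smallest p per pathway list and comparison, the 3 genes most like each by Spearman's rho, and markers where a list is described. For home cage against sedentary, all called genes of the responsive list are named. Positions and promoter sequences are RefSeq's for GRCm38.p6.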

Additional observations from a re-analysis of the deposited data

Results flagged for a closer look

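In 8 of the 70 sets of 10 libraries (10 genes in 7 groups), the highest or lowest library stood apart from the rest by a gap that is large for the set's range (Dixon's criterion at 95%), where chance gives about 1 in 20 sets, or 3.5 here. Of these, 5 were sedentary replicate 6: Nr3c2 at 11.9 FPKM, Fkbp5 at 9.996 FPKM, Plekhf1 at 7.61 FPKM, Zbtb16 at 0.746 FPKM and Cdkn1a at 12.8 FPKM. The other 3 were Nr3c2 at 28.0 FPKM in 0-0-2 replicate 8, Fkbp5 at 13.2 FPKM in 14-14-0 replicate 3 and Tsc22d3 at 45.1 FPKM in 14-7-2 replicate 4. What sets these libraries apart was not tested.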

How the results depend on the processing

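Of the comparisons, the calls against sedentary (10 over 6 comparisons) ranged from 7 to 13 under the alternatives, and the calls against home cage (34 over 5) from 21 to 34, with 21 in harvest cohort 2 alone. In that cohort 0.754% to 5.06% of all genes were called against home cage, and 2.26% to 9.96% with both cohorts. The 3 calls between exercise groups fell to 1, Ddit4 in 14-14-0 against 14-7-0, in a joint fit of all 7 groups, with Cyber-T on FPKM, with Cyber-T on log2 values and at an unadjusted p under 0.01. They were 5 with the harvest cohort as a covariate and 5 without 14-7-0 replicate 4, with the 3 kept each time. Nr3c1 in 14-7-2 against 14-7-0 was added in both, Cdkn1a in 14-7-2 against 0-0-2 in the first and Tsc22d3 in 14-14-0 against 14-7-0 in the second. Without 14-7-0 replicate 4, 5.77% of all genes were called in 14-7-2 against 14-7-0 and 7.37% in 14-14-0 against 14-7-0. In cohort 2 alone there were 5 calls and none of the 3 was among them: Cdkn1a in 14-7-0 against 14-0-0, and Sgk1, Tsc22d3, Nfkbia and Plekhf1 in 14-14-0 against 14-7-0. In that cohort 4.79% of all genes were called in the first of these comparisons and 1.28% in the second. Shares of all genes under the other settings are not given here. The single call between cohorts became 0 with limma at an unadjusted p under 0.01, against 1 under 0.05. Without centring on group and cohort, 29 pairs of genes correlated in place of 17. The causes of these moves were not tested. For single genes called in a comparison, 609 of 682 alternative values kept their direction and call, 73 lost the call and 0 were reversed. The calls most often lost were Fkbp5 in 14-7-2 against home cage (9 of 14 alternatives), Tsc22d3 and Fkbp5 in 14-7-0 against 14-0-0 (8 and 6 of 15), Cdkn1a in 14-7-0 against home cage (7 of 15) and Nr3c1 in 0-0-2 against home cage (7 of 14).

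The labels number replicates alike in every group without saying what a number shares, and the libraries were not treated as paired. Deviations of same-numbered libraries had a median correlation of 0.0853, against -0.0204 for other numbers of the same cohort, and 96 of 210 same-number pairs were over 0.1. Of 70 libraries 28 correlated best with their own number among the 5 of their cohort, a hint from the data and not from the design. With the replicate number as a block, the calls were 11 against sedentary, 32 against home cage and 5 between exercise groups, where the 3 were kept and Cdkn1a in 14-7-2 against 0-0-2 and Fkbp5 in 14-14-0 against 14-7-0 were added.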
